A study of Mus musculus with 16 samples.

Results

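Nascent transcription was compared between 6 libraries of mouse embryonic stem cells whose labels carry the letter a and 6 libraries whose labels do not. The ending .del was read as deletion of the sites that the letters name. Below, libraries with site a are therefore those whose label names site a as deleted, and libraries without site a the others. The libraries with site a in the label were abc.del (2 libraries), ab.del (2), ac.del (1) and a.del (1). Those without it were bc.del (1), c.del (2), b.del (1) and the parental F121-9 line (2). These 12 of the series' 16 libraries were taken by name, as those called F121-9 or by letters and .del, a comparison chosen with earlier results of these data known. The comparison covered 23825 autosomal gene symbols of 24978 in the table, each represented by its widest row. The other 4 libraries, 680kinv, 100kdel, 245kdel and 4k.b.c, were not in the comparison.

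All 12 libraries came from F121-9, a hybrid line with 1 Mus castaneus (cast) and 1 129 copy of each autosome, grown in 2i and LIF medium on gelatin. Cells took up bromouridine for 30 min, and the labelled RNA was captured with an antibody and sequenced (Bru-seq), so that each value reports transcripts made in that window. Reads had been assigned to a copy by sequence differences, which gave a 129 and a cast value per gene, in counts per 1000000 reads (CPM). The labels give neither the positions of sites a, b and c nor the copy that was edited, nor do they say whether libraries of 1 genotype came from separate cultures or edits, so that p-values measure the spread between these libraries. Libraries of 1 edited genotype carry different letter and number codes, which the labels do not explain, and replicate numbers here only tell them apart. Site b was in 4 of 6 labels with site a and 2 of 6 without it, and site c was in 3 of 6 labels of each group.

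The series concerns elements in cis that control when and where DNA is replicated. The sites lie in the domain of Dppa2 and Dppa4, which is transcribed and replicates early in embryonic stem cells. Dppa2 and Dppa4 encode SAP-domain proteins that act together on chromatin in pluripotent cells and promote genes of the early embryo, and their neighbour Morc1 encodes an ATPase that silences transposons in the male germ line. An element in cis acts on the chromosome that carries it, so an allele-resolved assay compares the edited chromosome with its unedited partner in the same nucleus.

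Reads over the widest rows numbered, in units of 1000000 (M), 15.6 M to 32.0 M in libraries with site a in the label and 9.56 M to 22.3 M in libraries without it. Over genes, whose values do not count as replicates, pairs of libraries correlated on the log2 scale at a median r of 0.965 within the libraries with site a (15 pairs), 0.947 within those without it (15) and 0.955 between the groups (36). No pair of libraries held identical values. Summed levels of 10 embryonic stem cell markers, among them Pou5f1, Sox2 and Nanog, were 1609 to 2220 CPM with site a and 1578 to 2103 CPM without it, and none of these genes passed the test. Summed markers of other cell types overlapped between the groups: 13.7 to 23.4 against 12.2 to 24.4 CPM for epiblast-like cells, 31.5 to 59.9 against 27.1 to 50.03 CPM for neuroectoderm, and 1.03 to 5.72 against 0.990 to 5.31 CPM for mesoderm. The sums were 116 to 232 against 109 to 211 CPM for primitive endoderm, 10.2 to 32.6 against 7.48 to 20.4 CPM for trophoblast, and 319 to 654 against 319 to 575 CPM for fibroblasts. Medians with against without site a were 25.6 against 9.59 CPM for trophoblast, 53.6 against 38.5 CPM for neuroectoderm and 189 against 138 CPM for primitive endoderm, and 1 marker each of neuroectoderm, trophoblast and fibroblasts had an unadjusted p under 0.05. Pou3f1, Neurog2, Neurod1, Mixl1, Mesp1, Foxa2, Elf5, Col1a1 and Twist1 were below 0.2 CPM in all 12 libraries, as were 1 of 5 epiblast-like, 3 of 8 neuroectoderm, 4 of 8 mesoderm, 1 of 10 primitive endoderm, 4 of 8 trophoblast and 4 of 9 fibroblast markers in all. None of these markers was called, and their part in the results below was not tested.

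Several chromosomes stood apart in 3 libraries, and genes on them are marked where they are described. Members of the gene lists described further below are not marked in this way. In a.del, the median share of reads from the 129 copy was 99.9% on chromosome 1 and 0.169% on chromosome 12, with median levels of 0.078 and 0.089 log2 units relative to the libraries without site a. In the same library chromosome 8 had a 129 share of 33.1% and a level of 0.76. Chromosome 3 had a 129 share of 33.3% in ac.del, with a level of 0.57, and of 31.1% in c.del replicate 1, with a level of 0.29. In c.del replicate 1, chromosome 8 had a share of 45.0% and a level of 0.0054. The other 222 pairs of library and chromosome had shares of 47.3% to 53.0%. Chromosome 16, which carries Dppa2, was among these in every library.

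**Figure D1:**
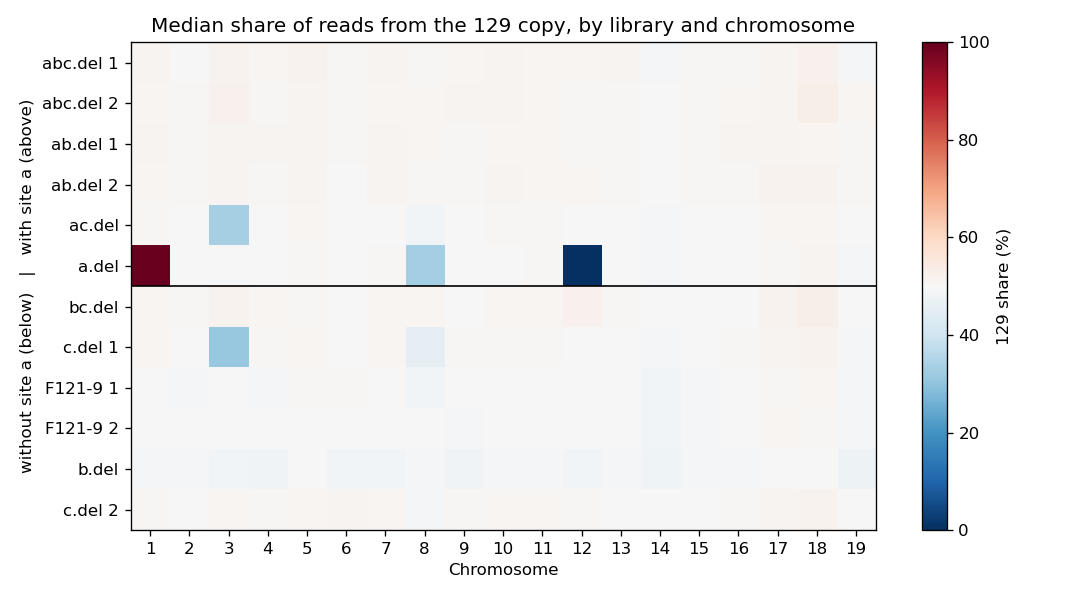
Median share of allele-assigned reads from the 129 copy (%, colour) for each library (rows; the 6 libraries with site a above the line, the 6 without it below) and autosome (columns), over genes with a mean of at least 1 CPM. Chromosomes 1, 8 and 12 of a.del and chromosome 3 of ac.del and c.del replicate 1 stand out from the other pairs at 47.3% to 53.0%, with chromosome 8 of c.del replicate 1 at 45.0%.

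At the locus, Dppa2 separated the groups by the balance of its copies. Dppa2 lies on chromosome 16 at 48310274 to 48319513 of mm10, on the plus strand. Its 129 copy was at 0.345 and 0.460 CPM in abc.del, 0.104 and 0.129 CPM in ab.del, 0.888 CPM in ac.del and, in a.del, 33.6 CPM, against 20.5 CPM in bc.del, 17.5 and 38.2 CPM in c.del, 33.1 CPM in b.del and 23.0 and 20.4 CPM in F121-9. Its cast copy was at 12.9 and 11.8 CPM in abc.del, 10.8 and 23.9 CPM in ab.del, 23.2 CPM in ac.del and none in a.del, against 8.82 CPM in bc.del, 11.4 and 21.6 CPM in c.del, 24.3 CPM in b.del and 15.8 and 12.1 CPM in F121-9. Every library with site a in its label therefore had 1 nearly silent copy of Dppa2, the 129 copy in 5 libraries and the cast copy in a.del, and every library without it transcribed both.

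The low copy of Dppa2 rested on 7 and 8 reads in abc.del, 2 and 3 in ab.del, 32 in ac.del and 0 in a.del. The high copy exceeded it 37.5-fold (95% counting interval, exact binomial, 17.9 to 94.2) and 25.7-fold (12.8 to 60.5) in abc.del, 104-fold (28.3 to 862) and 185-fold (62.8 to 898) in ab.del and 26.1-fold (18.3 to 38.4) in ac.del. In a.del it was at least 209-fold higher, taking 3 reads in that library as the most that a count of 0 allows. Without site a the 129 copy was the higher one in all 6 libraries, by 1.36-fold to 2.32-fold. These intervals cover counting error only.

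Allele imbalance was taken as the unsigned log2 ratio of the copies, with 0.1 CPM added to each, since the edited copy is not given. The low cast copy of a.del was known when this unsigned measure was chosen, so that the separation on it is no independent evidence. It averaged 5.78 ± 1.54 for Dppa2 with site a and 0.73 ± 0.27 without it (SD, n = 6 each), and the ranges of 4.41 to 8.40 and 0.44 to 1.21 did not overlap, as for 0.388% of genes tested. The imbalance rose by 5.05 (SE 0.65; limma adjusted p = 0.0337). Dppa2 was the 1 gene of 13396 tested (0.00746%) that passed on this measure, and 755 genes (5.64%) had an unadjusted p under 0.05. A two-sided exact permutation over the 924 splits of 6 against 6 gave p = 0.0022 unadjusted, the smallest it can give. Deposited sample numbers fall into 2 runs, whose meaning the labels do not state. The first run held 3 libraries with site a and 4 without it, the second 3 and 2. Every library with site a in the first run also had b in its label. In the second run they were ab.del replicate 2, ac.del and a.del. The difference in imbalance was 4.23 within the first run (exact p = 0.0286, the smallest of 35 splits) and 5.92 within the second (exact p = 0.1, the smallest of 10). The call is near its threshold, since limma's adjusted p passed 0.05 in 9 of 30 alternatives and missed it in 21, with differences of 3.17 to 5.97 and adjusted p values of 0.00744 to 0.815. Of the 12 fits that left out 1 library, 10 missed the threshold, and those without a.del (4.53, adjusted p = 0.00745) and without abc.del replicate 2 (5.33, adjusted p = 0.042) passed.

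**Figure D2:**
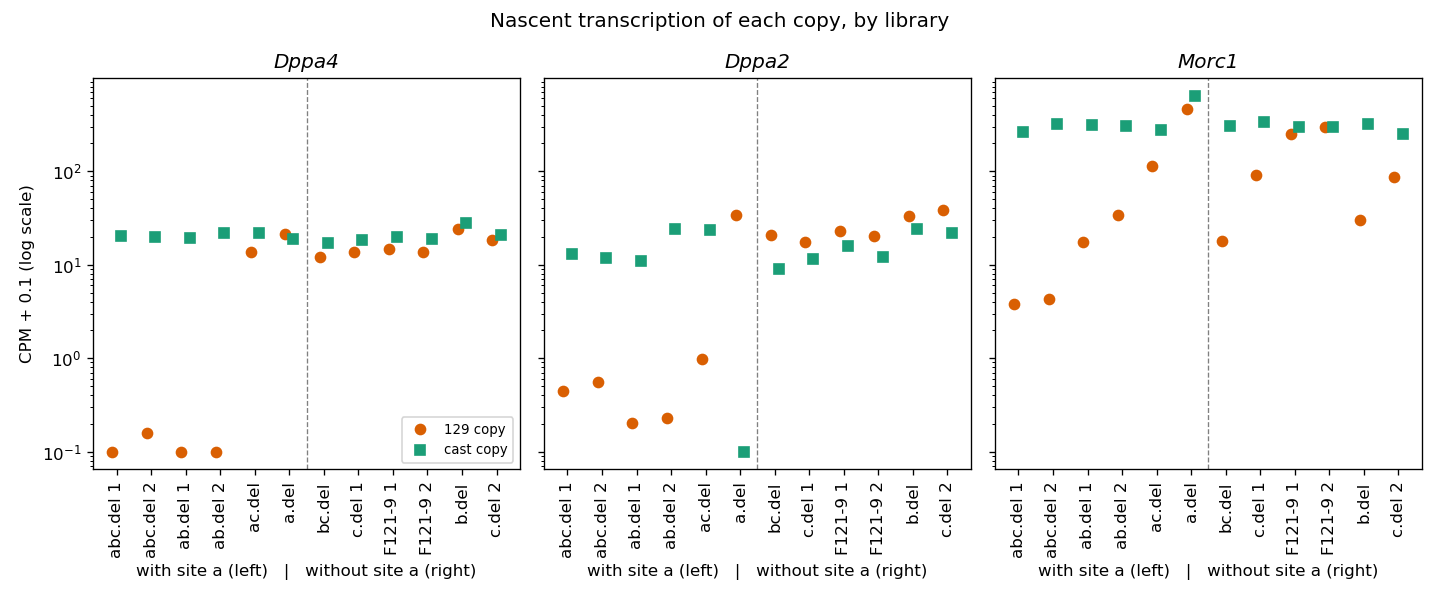
CPM + 0.1 (log scale) of the 129 copy (circles) and the cast copy (squares) of Dppa4, Dppa2 and Morc1 in each library, with the 6 libraries with site a left of the dashed line and the 6 without it right of it. For Dppa2, 1 copy is below 1 CPM in every library with site a, the cast copy in a.del and the 129 copy in the others, and both copies are above 8 CPM in every library without it.

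Tested on a single copy, Dppa2 did not pass, and the low copy in a.del was cast where it was 129 in the other 5 libraries. The 129 copy averaged 5.93 ± 13.6 CPM with site a and 25.4 ± 8.23 CPM without it, a log2 difference of -4.84 (SE 0.96; limma adjusted p = 0.211; exact p = 0.013 unadjusted). Without a.del the difference was -5.90 with an adjusted p of 1.29e-06. The cast copy averaged 13.8 ± 8.87 CPM with site a and 15.7 ± 6.12 CPM without it, a difference of -1.13 (adjusted p = 0.833). The mean of both copies was 9.85 ± 4.51 CPM with site a and 20.6 ± 7.00 CPM without it. That difference, -1.11 (SE 0.29), did not pass (limma adjusted p = 0.390; exact p = 0.0087 unadjusted), but it passed with the deposit run as a covariate (adjusted p = 0.00243).

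Dppa4 lies next to Dppa2, at 48283735 to 48294292 on the plus strand of chromosome 16, and it divided the libraries with site a. Its 129 copy was at 0 and 0.0574 CPM in abc.del, 0 and 0 in ab.del, 13.7 CPM in ac.del and, in a.del, 21.2 CPM, against 11.9 CPM in bc.del, 13.7 and 18.2 CPM in c.del, 23.8 CPM in b.del and 14.8 and 13.5 CPM in F121-9. Its cast copy was at 18.8 to 21.8 CPM in the libraries with site a and 16.8 to 27.9 CPM in those without it. The 4 libraries with both a and b in the label had 0 or 1 read from the 129 copy of Dppa4, whereas ac.del and a.del, with a and not b, were inside the range of the libraries without site a on both copies.

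The cast copy of Dppa4 was at least 137-fold higher than the 129 copy in abc.del replicate 1 and at least 168-fold higher in ab.del replicate 2, with 3 reads per library as the floor, and ab.del replicate 1 had 347 cast reads and 0 from 129. In abc.del replicate 2, with 1 read, the ratio was 340 (95% counting interval 60.5 to 13456). The copies differed 1.56-fold in ac.del and 1.13-fold in a.del, against 1.14-fold to 1.41-fold in the libraries without site a. The higher copy was 129 in a.del (95% counting interval of the ratio 0.975 to 1.30). It was cast in ac.del and in every library without site a. On imbalance the groups averaged 5.13 ± 3.68 and 0.37 ± 0.13, a difference of 4.76 (SE 1.34) with a limma adjusted p of 0.806 and an exact p of 0.028 unadjusted. The 129 copy differed by -4.71 (SE 1.31; adjusted p = 0.518) and the cast copy by 0.0015 (SE 0.15; adjusted p = 0.998). The mean of both copies was 13.0 ± 4.59 CPM with site a and 18.2 ± 4.12 CPM without it (adjusted p = 0.649).

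A term for the interaction of sites a and b was added after these values had been seen, and is a description of a pattern already visible. For the 129 copy of Dppa4 it was -7.43 (SE 0.59; limma adjusted p = 0.000225), the 1 call among 13340 genes (0.0075%; 1454 genes at an unadjusted p under 0.05). For its imbalance it was 7.10 (SE 0.80; adjusted p = 0.0215), the 1 call among 13396 genes (0.00746%). The same term did not pass for Dppa2 on imbalance (-1.19, adjusted p = 0.801) or for Morc1 on imbalance (1.24, adjusted p = 0.783). The mean of both copies and the cast copy gave 0 calls with the limma fit, with 1420 and 1338 genes at an unadjusted p under 0.05. No other tool was run for this term.

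Morc1, downstream of Dppa2 at 48431237 to 48630905 on the plus strand, did not separate the groups. Its 129 copy was at 3.70 and 4.19 CPM in abc.del, 17.3 and 34.1 CPM in ab.del, 115 CPM in ac.del and, in a.del, 469 CPM, against 17.8 CPM in bc.del, 90.0 and 87.7 CPM in c.del, 30.1 CPM in b.del and 251 and 294 CPM in F121-9. Its cast copy was at 265 to 635 CPM with site a, the highest being a.del, and at 250 to 337 CPM without it. The 129 copy ranged more widely with site a than without it: both abc.del libraries and ab.del replicate 1 were below the lowest library without site a, bc.del, and a.del was above the highest, F121-9 replicate 2. The imbalance of Morc1 was 3.56 ± 2.42 with site a and 1.86 ± 1.64 without it (difference 1.70, SE 1.08; limma adjusted p = 0.806; exact p = 0.18 unadjusted). Its direction differed between the runs, at 3.94 in the first and -0.84 in the second. The runs hold different genotypes, with b in every label with site a in the first run only, so that run and genotype cannot be told apart. The mean of both copies was 229 ± 159 CPM with site a and 214 ± 57.9 CPM without it (difference -0.054; adjusted p = 0.964).

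Farther along the chromosome no gene of the neighbourhood was called. Dzip3, which encodes a ubiquitin ligase, averaged 55.3 ± 11.6 CPM with site a and 63.0 ± 6.61 CPM without it (difference -0.21; exact p = 0.18 unadjusted), and Cip2a, which encodes an inhibitor of protein phosphatase 2A, 51.1 ± 4.26 and 55.2 ± 10.9 CPM (-0.094; exact p = 0.50). The imbalance of Dzip3 was 0.15 ± 0.083 with site a and 0.32 ± 0.15 without it (exact p = 0.032 unadjusted; limma adjusted p = 0.806). Trat1, a T cell adaptor gene, had 0.657 ± 0.247 and 0.569 ± 0.371 CPM (exact p = 0.52), and 6430553K19Rik, upstream of Dppa4, 0.231 ± 0.233 and 0.250 ± 0.272 CPM (exact p = 0.91). Sequences of the Dppa2, Dppa4 and Morc1 promoters are not shown.

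**Figure D3:**
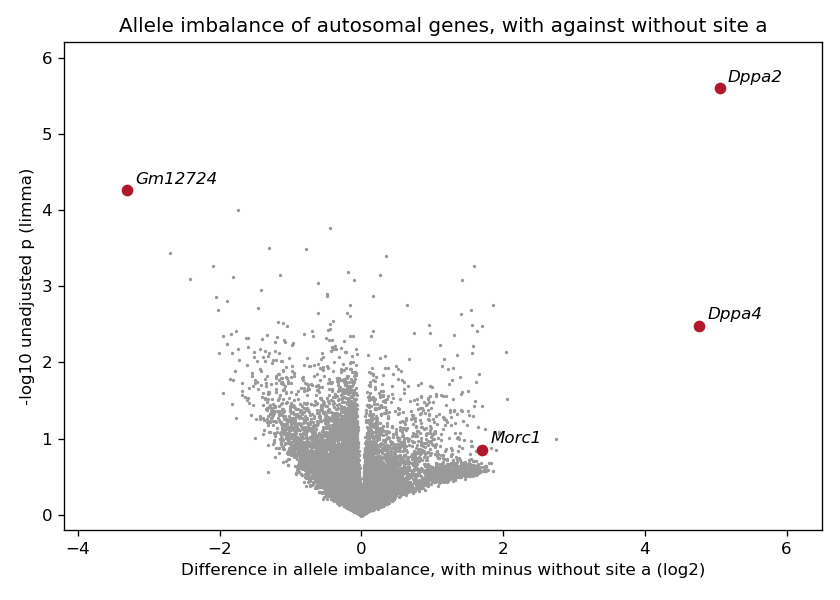
Difference in allele imbalance (log2, with minus without site a, x axis) against -log10 of the unadjusted limma p (y axis) for the 13396 autosomal genes tested, 1 point per gene. Dppa2, at 5.05, lies apart from the rest, Dppa4, at 4.76, has a larger p, Morc1 lies at 1.70, and the gene with the next smallest p, Gm12724, lies at -3.31.

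Across the autosomes few genes differed. On the mean of both copies, 2 of 13396 genes passed (0.0149%), both lower with site a, while 992 (7.41%) had an unadjusted p under 0.05, 563 of them higher (4.2%) and 429 lower (3.2%). On the 129 copy 3 of 13340 passed (0.0225%), all lower, and 941 (7.05%) had an unadjusted p under 0.05. Gm12724 and Abcb5, described below, met the filter (a mean of 0.2 CPM over the 12 libraries) only through the libraries without site a. On the cast copy none of 13161 genes passed with limma (768, or 5.84%, at an unadjusted p under 0.05), against 1 with edgeR and 24 with DESeq2 on recovered reads. The signed log2 ratio of 129 to cast gave 0 calls of 13396 with limma, with 632 genes (4.72%) at an unadjusted p under 0.05. No other tool was run for the signed ratio. Values of the 2 groups did not overlap for 22 genes in the higher direction (0.164%) and 27 in the lower (0.202%) on the mean of both copies, 0.366% together. Of 12660 genes tested on both copies, the groups were separate on both copies in the higher direction for Kank2 alone, 4.76% of 21 such genes on 129 and 5.26% of 19 on cast. In the lower direction they were separate for Syce1 alone, 4.17% of 24 on either copy. Genes separate on a single copy made up 0.165% higher and 0.225% lower of all tested on 129, and 0.152% and 0.182% on cast. The median difference of all genes was 0.087 log2 units on the mean of both copies, and differences stand relative to that shift.

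Gm12724, a predicted gene at 106241213 to 106290547 on the plus strand of chromosome 4, was lower in libraries whose label names site a as deleted. Its mean over both copies was 0 to 0.0972 CPM with a median of 0.0368 in the libraries with site a, against 0.592 to 2.76 CPM with a median of 1.65 in those without it. The 6 libraries with site a held 12 reads from the 129 copy and 0 from the cast copy, against 351 and 11 reads in the 6 libraries without it. Transcription came almost wholly from 129 in both groups, and abc.del replicate 2 and ab.del replicate 2 had no read at all. The log2 difference, on the scale of CPM + 0.1, was -3.44 (SE 0.45; limma adjusted p = 0.0118), and -4.05 (SE 0.51; adjusted p = 0.0159) on the 129 copy. Of 31 alternatives for the mean, 22 passed and 9 missed, among them the fits without abc.del replicate 2 (adjusted p = 0.0529), ab.del replicate 2 (0.0513), F121-9 replicate 1 (0.0611) and c.del replicate 2 (0.0530). The other misses were the pseudocounts of 0.01 (limma adjusted p = 0.0543) and 1 (0.0813), either run alone (0.216 in the first) and edited clones alone (0.260). On the 129 copy 21 of 32 alternatives passed. There it missed without ab.del replicate 2 (limma adjusted p = 0.0553), F121-9 replicate 1 (0.0814), F121-9 replicate 2 (0.0672) or c.del replicate 2 (0.0733). It also missed at pseudocounts of 0.01 (0.105) and 1 (0.0519) and within either run. Site b and site c terms (0.0814), these with the run (0.119) and edited clones alone (0.340) gave misses too. Of the libraries outside the comparison, 245kdel had 13.9 CPM, 100kdel 3.54, 680kinv 0.691 and 4k.b.c 0.0464 CPM.

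Chrm3, which encodes the muscarinic acetylcholine receptor M3, was also lower in libraries with site a in the label. It lies at 9876613 to 10360803 on the minus strand of chromosome 13. Its mean over both copies was 0.400 to 0.962 CPM with a median of 0.526 with site a, against 1.52 to 4.80 CPM with a median of 3.59 without it, and the groups did not overlap. The difference was -2.23 (SE 0.34; limma adjusted p = 0.0479). The 129 copy carried it, at 105 against 639 reads (log2 difference -2.75, SE 0.37; adjusted p = 0.0187), whereas the cast copy had 47 against 62 reads. The call on the mean passed in 11 of 32 alternatives and missed in 21, with differences of -2.60 to -1.37. Leaving out any 1 library ended it, at adjusted p values up to 0.241, except c.del replicate 1 (0.00897) and b.del (0.0407). On the 129 copy it passed in 18 of 32 alternatives. There it missed without abc.del replicate 1, either ab.del library, bc.del, either F121-9 library or c.del replicate 2, at 0.0515 to 0.0999. It also missed without a filter (limma adjusted p = 0.0542), with site b and site c terms (0.160) and in edited clones alone (0.452), among others. In 245kdel, outside the comparison, Chrm3 was at 23.1 CPM.

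Abcb5, a gene of an ABC transporter at 118867824 to 118966421 on the minus strand of chromosome 12, was the other gene that fell on the 129 copy. The values were 0 to 0.361 CPM with site a, with a median of 0.114, against 0.911 to 4.47 CPM without it, with a median of 2.28 (difference -3.47, SE 0.51; limma adjusted p = 0.0378). In a.del chromosome 12 gave almost no 129 reads. On the 129 copy Abcb5 met the filter only through the libraries without site a (mean 2.54 CPM, against 0.155 CPM with it). It passed on that copy in 12 of 30 alternatives and missed in 18. It missed without abc.del replicate 1, either ab.del library, bc.del, either F121-9 library or c.del replicate 2, at adjusted p values of 0.0877 to 0.169. It also missed without a filter (limma adjusted p = 0.0748), with site b and site c terms (0.160) and in edited clones alone (0.503), among others. On that copy the groups did not overlap for Gm12724, Chrm3 or Abcb5, nor for Cdh4, a cadherin gene with 35.1 ± 10.3 CPM with site a and 129 ± 63.1 CPM without it, which did not pass (adjusted p = 0.0662) but passed in 10 of 32 alternatives. In these bulk samples, fewer cells that transcribe a gene and less transcription per cell cannot be told apart.

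The promoters of 4 genes are printed because they differ in base composition, so that the contrast among the 4 is set by that choice. Gm12724 and Chrm3 were lower in libraries with site a in the label. Brpf3 and Kank2, picked after their values were seen, had higher values there that did not overlap between the groups. Neither passed with limma as fitted here. Fgfr2 and Sdc4, with a smaller p than Kank2 in that direction, are not printed. Each window runs from 250 bases before to 50 after the RefSeq start (GRCm38.p6), 5′ to 3′ on the gene's strand, with CG dinucleotides in capitals.
Gm12724: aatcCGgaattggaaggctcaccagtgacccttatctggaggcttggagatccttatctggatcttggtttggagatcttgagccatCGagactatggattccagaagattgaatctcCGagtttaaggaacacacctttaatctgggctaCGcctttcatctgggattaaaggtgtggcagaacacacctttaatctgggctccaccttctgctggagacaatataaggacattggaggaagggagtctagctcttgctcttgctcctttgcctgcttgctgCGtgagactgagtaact
Chrm3: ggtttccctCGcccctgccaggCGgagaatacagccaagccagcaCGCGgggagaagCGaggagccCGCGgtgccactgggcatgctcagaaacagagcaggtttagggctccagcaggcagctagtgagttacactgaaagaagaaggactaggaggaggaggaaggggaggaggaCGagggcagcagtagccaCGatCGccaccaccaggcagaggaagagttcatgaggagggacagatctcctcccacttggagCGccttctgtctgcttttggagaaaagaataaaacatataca
Brpf3: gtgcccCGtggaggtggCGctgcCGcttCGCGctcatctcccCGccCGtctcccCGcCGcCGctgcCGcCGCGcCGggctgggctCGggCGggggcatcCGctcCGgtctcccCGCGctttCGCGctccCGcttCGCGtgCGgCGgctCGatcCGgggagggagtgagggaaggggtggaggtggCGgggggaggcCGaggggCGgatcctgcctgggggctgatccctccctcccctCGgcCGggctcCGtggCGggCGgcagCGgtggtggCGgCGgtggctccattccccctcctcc
Kank2: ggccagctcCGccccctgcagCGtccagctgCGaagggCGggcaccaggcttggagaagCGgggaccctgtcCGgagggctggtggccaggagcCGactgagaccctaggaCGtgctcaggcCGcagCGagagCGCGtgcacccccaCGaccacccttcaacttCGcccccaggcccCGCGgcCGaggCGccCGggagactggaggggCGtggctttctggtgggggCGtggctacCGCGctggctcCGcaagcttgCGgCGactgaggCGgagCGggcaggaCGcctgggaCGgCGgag
The windows are chr4:106236872-106237171 on the plus strand for Gm12724, chr13:10360754-10361053 on the minus strand for Chrm3, chr17:28800876-28801175 on the plus strand for Brpf3, and chr9:21798497-21798796 on the minus strand for Kank2. The RefSeq start of Gm12724 lies 4091 bases from the start of the row that was measured.

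Gm12724 holds 5 CG dinucleotides and Chrm3 11, against 40 in Brpf3 and 31 in Kank2, and the median over 32841 promoters of the same length was 7. At least as many as in Brpf3 were found in 3.91% of all promoters and at least as many as in Kank2 in 10.6%. The sequence TATAAA, searched on both strands, is in none of the 4 windows, in 13.6% of all promoters and in 6.64% of those of tested genes. It is in 5.88% of the promoters of genes whose groups did not overlap in the higher direction and in 13.6% of those in the lower. Among genes whose groups did not overlap on the mean, the 22 higher ones had a median of 17 CG dinucleotides over 17 promoters found and the 27 lower ones 14.5 over 22, against 21 over the 10298 promoters of tested genes. These are descriptions of sequence, not of binding.

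With limma as fitted here no gene rose past the threshold on the mean of both copies, the 129 copy or the cast copy, whereas on the mean edgeR called 1 gene higher and DESeq2 15, and DESeq2 called 8 higher on 129 and 2 on cast. Brpf3, which encodes a scaffold of a histone acetyltransferase complex, was nearest, with 53.6 to 93.3 CPM and a median of 78.8 with site a, against 33.9 to 49.7 CPM and a median of 40.2 without it. The groups of Brpf3 did not overlap, and the difference was 0.86 (SE 0.15; limma adjusted p = 0.0762). It passed in 7 of 32 alternatives, among them edgeR (adjusted p = 0.0316) and DESeq2 (2.47e-06). The others were limma fits with the deposit run (adjusted p = 0.00891), with site b, site c and run (0.0468) and with quantile normalization (0.0361). Limma without ab.del replicate 1 (0.0213) or without b.del (0.0474) passed as well. Fgfr2, a fibroblast growth factor receptor, had 13.3 to 54.0 CPM with site a and 5.73 to 13.7 CPM without it, a difference of 1.41 with overlapping groups (adjusted p = 0.217). Sdc4, a heparan sulphate proteoglycan of the cell surface, had 18.0 to 25.6 CPM against 6.68 to 17.5 CPM (1.01; adjusted p = 0.234), and Kank2, which links integrin adhesions to the cytoskeleton, 54.5 to 72.9 against 33.6 to 45.1 CPM (0.54; adjusted p = 0.234). Both Sdc4 and Kank2 were separate between the groups, as was Map7d1, a microtubule-associated protein gene, at 3.96 to 6.76 against 2.87 to 3.47 CPM (0.86; adjusted p = 0.293). The imprinted Peg3 had 19.6 to 35.9 CPM against 8.82 to 21.3 CPM (1.02; adjusted p = 0.234). Of these genes, Fgfr2, Peg3 and Map7d1 each passed in 1 of 32 alternatives, DESeq2, Sdc4 in 2 and Kank2 in 0. Lrrc15 and Ivns1abp completed the higher set and passed with DESeq2 alone, at 2.59 to 9.46 against 1.00 to 4.34 CPM and 47.7 to 85.7 against 35.4 to 49.5 CPM. Ivns1abp lies on chromosome 1, where nearly all reads of a.del were from 129.

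Below the 2 called genes, the lower set on the mean of both copies held further genes, none past the threshold with limma as fitted here. Cyp7b1, an oxysterol hydroxylase, had 9.98 to 16.8 CPM with site a and 16.5 to 35.7 CPM without it (difference -1.16, SE 0.20; limma adjusted p = 0.0762), and on the cast copy 11.4 to 15.4 against 22.4 to 35.8 CPM, without overlap (-1.12; adjusted p = 0.0635). On the mean it passed in 8 of 30 alternatives, among them edgeR (adjusted p = 0.0316), DESeq2 (2.47e-06) and median centring (0.0225), and on cast in 7 of 30. It lies on chromosome 3, which stood apart in ac.del and c.del replicate 1. Nell1, a secreted protein gene, had 0.996 to 2.03 CPM against 2.22 to 7.45 CPM (-1.59; adjusted p = 0.147), without overlap. Tacr3, a neurokinin receptor gene, Inpp4b, an inositol phosphatase gene, and 6530403H02Rik had differences of -1.99, -1.94 and -2.40, each with an adjusted p of 0.147. Nell1, Inpp4b and 6530403H02Rik each passed in 1 alternative, DESeq2, and Tacr3 in 2. Tacr3, at a mean of 0.0322 CPM with site a and 0.398 CPM without it, met the filter only through the latter group. Tacr3 and 6530403H02Rik lie on chromosome 3 and Inpp4b on chromosome 8, which stood apart in a.del.

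**Figure D4:**
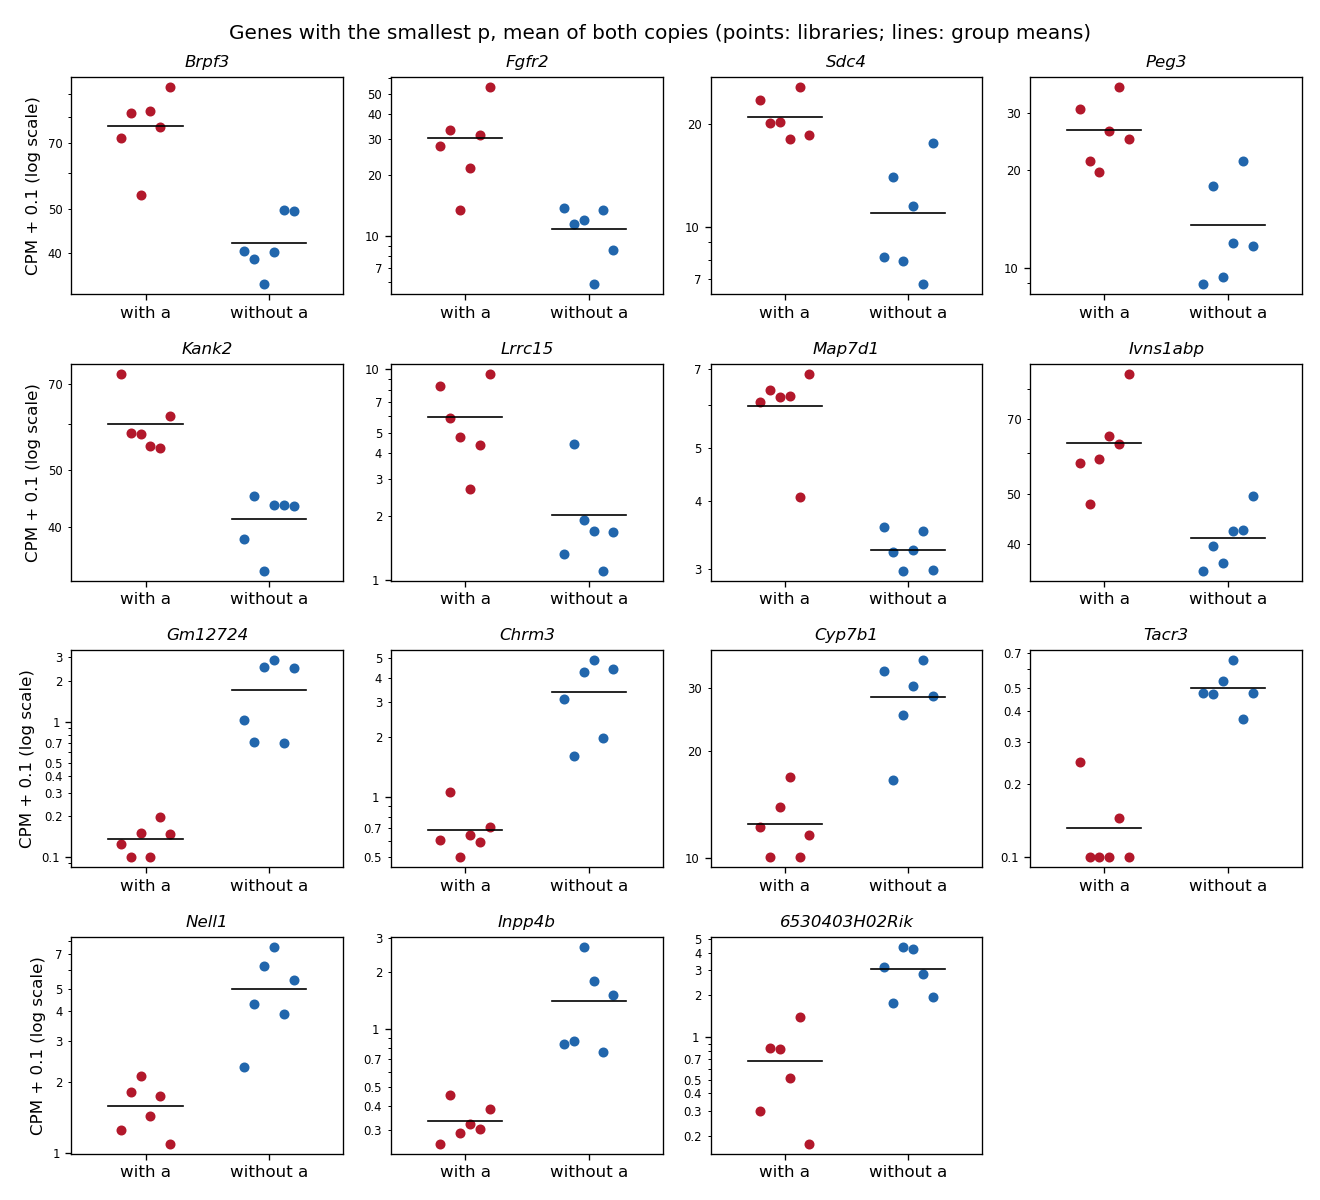
CPM + 0.1 (log scale, y axis, a different range in each panel) of the mean of both copies for the 8 genes with the smallest p in the higher direction (upper rows) and 7 of those in the lower direction (lower rows), with 1 point per library, the 6 with site a left and the 6 without it right, and lines at group means. Gm12724 and Chrm3 are the genes that passed; Cyp7b1, Fgfr2, Peg3, Lrrc15 and Ivns1abp have overlapping groups.

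The single copies named further genes, none of them past the threshold with limma as fitted here. On the 129 copy, Kctd15, a BTB-domain protein gene, averaged 4.45 CPM with site a and 1.35 CPM without it, and Dock2, a guanine nucleotide exchange factor gene of blood cells, 2.51 and 8.82 CPM (limma adjusted p = 0.0716). Dock2 on that copy passed in 6 of 32 alternatives, edgeR and DESeq2 among them, and Kctd15 in 1, DESeq2. On the cast copy, Nell1 averaged 1.28 ± 0.291 CPM with site a and 6.69 ± 3.63 CPM without it, and Fshr, the follicle-stimulating hormone receptor gene, 0.231 ± 0.177 and 2.01 ± 0.946 CPM, with adjusted p values of 0.269 and 0.320. Brpf3 on that copy averaged 91.1 CPM with site a and 51.7 CPM without it (0.82; adjusted p = 0.270). Nell1, Fshr and Brpf3 on the cast copy each passed with DESeq2 alone. On imbalance, the genes after Dppa2 did not pass. Cdh4 was at 0.87 ± 0.27 with site a and 0.23 ± 0.14 without it, and Plekha2 at 0.47 ± 0.10 and 0.13 ± 0.081 (adjusted p = 0.806 and 0.644). Plekha2 lies on chromosome 8. In the lower direction Gm12724 was at 0.69 ± 0.62 and 4.00 ± 1.20 (adjusted p = 0.371), and Lin7a at 0.45 ± 0.35 and 2.20 ± 0.54 (adjusted p = 0.443). Imbalance of genes with few reads, such as these last 2, is set in part by the pseudocount.

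The 16 gene lists away from the locus held 0 called genes each with limma on the mean of both copies, where 0.0149% of all genes passed, and edgeR made 5 calls and DESeq2 116 over all genes. Each list is described by its genes at an unadjusted p under 0.05, where the share of all genes was 4.2% higher and 3.2% lower. Of 30 tested genes for meiosis and the germ line, 1 was higher and 8 were lower, with a median difference of -0.46 against 0.087 over all genes. Syce1, of the synaptonemal complex, averaged 0.917 ± 0.363 CPM with site a and 2.77 ± 0.845 CPM without it (difference -1.53; limma adjusted p = 0.234), with groups that did not overlap on either copy. Sycp3, of the same complex, averaged 1.41 ± 0.526 and 3.10 ± 1.58 CPM, Tdrd9, a helicase of the piRNA pathway, 1.05 ± 0.405 and 2.54 ± 0.934 CPM, and Tex14, of germ cell bridges, 41.1 ± 4.88 and 30.7 ± 5.29 CPM. Only 2 of 22 genes of the two-cell state in the table, among them targets that Dppa2 and Dppa4 are known to promote, were above the filter, so that little could be measured there. Zfp750 averaged 0.404 ± 0.126 CPM with site a and 0.143 ± 0.170 CPM without it (adjusted p = 0.573).

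Of 10 core pluripotency genes, 1 was higher at an unadjusted p under 0.05 and none lower (median 0.20). That gene, Lin28a, which encodes an RNA-binding protein that blocks let-7 maturation, averaged 16.2 ± 4.88 CPM with site a and 7.88 ± 3.09 CPM without it, without overlap (1.09; limma adjusted p = 0.408). Pou5f1 averaged 22.2 ± 12.2 and 16.7 ± 10.4 CPM (adjusted p = 0.771). Of 13 naive genes 1 was higher (Tcl1, 16.4 ± 2.55 and 12.8 ± 2.11 CPM), and of 10 formative genes 1 was lower (Grhl2, 2.58 ± 0.892 and 6.94 ± 4.28 CPM; adjusted p = 0.417). None of 13 FGF and ERK feedback genes was at an unadjusted p under 0.05, with Spry4 at 24.9 ± 16.6 and 14.7 ± 18.2 CPM.

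Among 42 DNA replication genes 2 were higher and none lower (median 0.17), namely Timeless, of the fork protection complex, at 41.6 ± 8.40 CPM with site a and 30.6 ± 13.6 CPM without it, and Cdc6, a loader of the MCM helicase, at 47.0 ± 7.17 and 37.1 ± 11.1 CPM. Among 15 CTCF and cohesin genes 1 was higher (Ldb1, 19.9 ± 3.17 and 14.7 ± 6.30 CPM; median of the list -0.032). Among 24 genes of DNA methylation and germline gene repression, 1 was higher (Tdg, 32.9 ± 5.64 and 24.3 ± 4.03 CPM; median 0.10). Of 23 p53 targets 1 was lower, Sesn1, at 40.1 ± 3.89 and 51.7 ± 4.61 CPM, without overlap (-0.37; limma adjusted p = 0.522). The imprinted list had 2 of 30 higher (Peg3 and Usp29; median 0.015), the immediate early list 2 of 12 (Nr4a1 and Jund; median 0.60), the ATF4 list 1 of 21 (Slc3a2; median 0.30) and the cholesterol synthesis list 2 of 20 (Srebf2 and Tm7sf2; median 0.27). No member was lower at that level in these 4 lists. None of 25 hypoxia and glycolysis genes (median 0.10) or 33 ribosomal protein genes (median 0.31) was at that level in either direction.

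Gene span moved with the group difference. The median difference on the mean of both copies was 0.28 for 2990 genes under 10 kb, 0.13 for 4338 genes of 10 to 30 kb, 0.0013 for 3930 genes of 30 to 100 kb, -0.052 for 1622 genes of 100 to 300 kb and -0.26 for 516 genes over 300 kb. For genes under 10 kb the libraries with site a stood at -0.076 to 0.70 and those without it at -0.16 to 0.77, with c.del replicate 2 the highest of all. By run of sample numbers, this class stood at -0.16 to 0.23 in the first run and 0.13 to 0.77 in the second. The part of the run in this class was not tested. For genes over 300 kb the libraries with site a stood at -0.46 to -0.19 and those without it at -0.16 to 0.089, without overlap. The 27 genes whose groups did not overlap in the lower direction spanned a median of 109 kb and the 22 in the higher direction 26.5 kb, against 26.1 kb over all genes tested. With each library centred within span classes, an alternative added after these values were seen, Gm12724 stayed past the threshold (limma adjusted p = 0.00442), Chrm3 was at -1.90 with an adjusted p of 0.0872, and Dppa2 on the mean of both copies passed (-1.40; adjusted p = 0.00730). On the 129 copy Gm12724 (limma adjusted p = 0.00722), Chrm3 (0.0300) and Abcb5 (0.0300) also stayed past the threshold with this centring. Brpf3 (0.823, adjusted p = 0.0872) and Cyp7b1 (-1.16, 0.0872) on the mean stayed short of it. Whether span accounts for any of these differences was not tested.

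**Figure D5:**
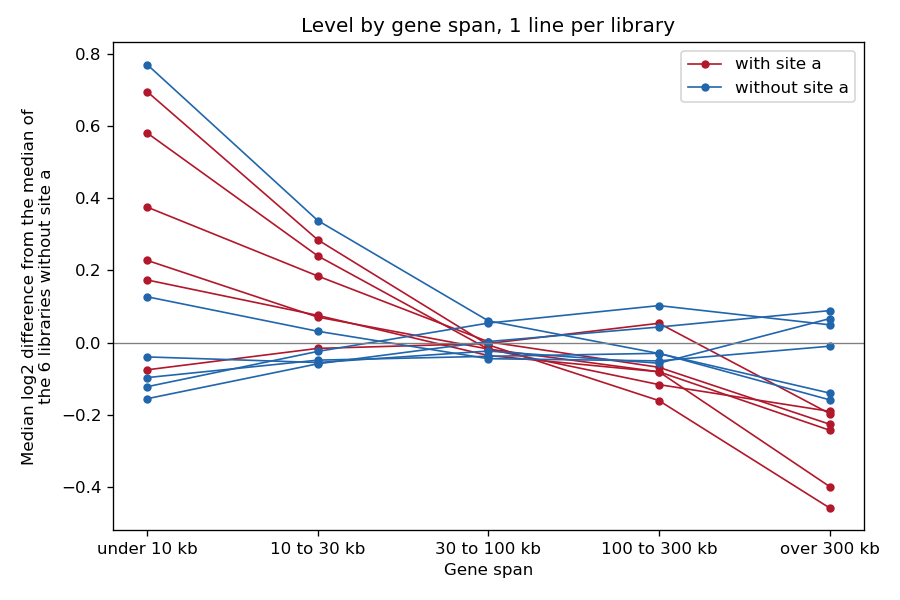
Median log2 difference of each library from the median of the 6 libraries without site a (y axis) in 5 classes of gene span (x axis), with 1 line per library. In genes over 300 kb the 6 libraries with site a lie at -0.46 to -0.19, below the 6 without it at -0.16 to 0.089, whereas in genes under 10 kb the groups overlap. The 6 without it form the reference, which draws them toward 0.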

How the data were processed

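Bru-seq libraries of F121-9 cells and edited clones were analysed from 1 deposited table of 32 columns, a 129 and a cast column for each of 16 libraries, of which 12 were compared. Cells had received 2 mM bromouridine, and 300 ng of labelled RNA gave strand-specific libraries read as 100 bp single ends, per the labels' protocols. Reads were aligned with Bowtie2 to mm10 and counted with bedtools, per the submitters' processing notes. No version is given by the sources used here. Reads were clipped, needed a mapping quality of 10 and were assigned by homozygous SNPs, per the file headers. The values the authors deposited are CPM: every column sums to 1000000. The table is named for RPKM, and no division by length was found, so the planned test for per-million values was kept. Dividing by the smallest value gave whole reads within 0.01 for 100% of values.

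For each of 23825 autosomal symbols the widest row was used. The 6 segments that the authors drew were not tested as genes. Tests used log2(CPM + 0.1) for genes with a mean of at least 0.2 CPM, in R 4.3.3 with limma 3.58.1, whose two-sided p values (eBayes with a trend) were adjusted by Benjamini-Hochberg over all genes tested, at a threshold of 0.05. Alternatives were other pseudocounts, filters, scalings and covariates, each library left out, single runs of sample numbers, edited clones alone (without F121-9), and edgeR 4.0.16 (quasi-likelihood) and DESeq2 1.42.0 on recovered reads. Span centring, autosomes without chromosomes 1, 3, 8 and 12, and the interaction of sites a and b were added after the data were seen. The members and gene lists were chosen with earlier results of these data known, among them the cast pattern of a.del. Named genes were Dppa2, Dppa4 and Morc1 and, per measure and direction, those passing, filled up to 8 by smallest p where fewer than 5 passed, and up to 4 per list. A gene that the rule names is not reported here. The neighbours of Morc1 come from the list of the locus. On counts simulated for this comparison over 13335 genes, limma found 78%, 100% and 100% of true log2 changes of 1, 2 and 4, beside 11 false calls. For imbalance over 13376 genes it found 0%, 29% and 84%, beside 1 false call. The simulation gave every gene the same dispersion (0.141) and changed only genes of at least 1 CPM. It held no differences by run, other sites or chromosome, so these shares do not measure the power in the real libraries. Other steps ran in Python 3.11.15 (scipy 1.17.1, numpy 2.4.6, matplotlib 3.10.9, pandas 2.3.3). Promoter sequences are from RefSeq (GRCm38.p6).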

Additional observations from a re-analysis of the deposited data

Results flagged for a closer look

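In 146 groups of 6 libraries, one for each named gene, measure and group, 11 held a library whose gap to the nearest other exceeded Dixon's 95% critical share of the range. The share is given for each, and chance gives about 1 in 20. With site a, a.del stood apart for the 129 copy (0.691) and the cast copy of Dppa2 (0.856), and for Morc1 on the mean of both copies (0.734) and the cast copy (0.786). Also with site a, ac.del was low for Map7d1 (0.773), abc.del replicate 1 was high for Kank2 on 129 (0.63), high for Tacr3 on 129, where the other 5 were at 0 (1), and low for Pde7b on cast (0.628), and ab.del replicate 2 was high for the imbalance of Plekha2 (0.772). Without site a, c.del replicate 1 was high for Lrrc15 on 129 (0.626), and c.del replicate 2 was high for Gm16104 on 129, where the other 5 were at 0 (1).

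For Dppa4, a term for the interaction of sites a and b, added after the pattern had been seen and so no independent test of it, was -7.43 (SE 0.59; limma adjusted p = 0.000225) on the 129 copy and 7.10 (SE 0.80; adjusted p = 0.0215) on imbalance. The libraries with a and not b are ac.del and a.del, 1 each.

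Among the 4 libraries outside the comparison, the imbalance of Dppa2 was 6.53 in 100kdel and 6.77 in 4k.b.c, above the highest library without site a at 1.21. That of Dppa4 was 7.11 in 100kdel and 0.923 in 680kinv, above the highest library without site a at 0.49. The low copy was 129 in 100kdel and 680kinv and cast in 4k.b.c. These single libraries were not tested.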

How the results depend on the processing

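No paired analysis was possible because only the F121-9 labels carry replicate numbers. For genes outside the locus, 61 pairs of gene and measure gave 1891 values under alternatives, of which 1742 kept their side of the threshold, 76 newly passed it, 73 no longer passed and 0 changed direction. Calls on the mean of both copies, 2 as reported, were 0 at a pseudocount of 0.01 or 1, at a mean CPM of at least 1, within the first run, within the second run and in edited clones alone, 1 without a filter or with every row, 5 with median centring, quantile normalization or edgeR, 8 with the deposit run or with site b, site c and run, and 116 with DESeq2 (15 higher, 101 lower). Leaving out a library gave 0 to 12, with 12 without c.del replicate 1, 6 without b.del, and 0 without F121-9 replicate 1, ab.del replicate 2, abc.del replicate 2 or c.del replicate 2. On 129, 3 calls became 0 at a pseudocount of 0.01, with site b and c terms, with these and run, within the second run and in edited clones, 1 at a pseudocount of 1 or without a filter, 5 with edgeR, 8 with median centring or quantile normalization and 63 with DESeq2; leaving out a library gave 0 to 10. On cast, 0 calls became 1 at a mean CPM of at least 1, with median centring, quantile normalization, the deposit run or edgeR, 2 without a filter and 24 with DESeq2; leaving out a library gave 0 to 2. On imbalance, 1 call became 0 at a pseudocount of 0.01, without a filter or a trend, with site b and c terms, the run, or both, with every row or chromosome X, within the second run and in edited clones; leaving out a library gave 0 to 1. The signed ratio gave 3 calls within the first run, and leaving out a library 0 to 1.

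The imbalance of Dppa2 no longer passed at a pseudocount of 0.01 (5.97, adjusted p = 0.660), without a filter (5.05, 0.0672), without a trend (5.05, 0.0502), with site b and c terms (5.20, 0.0769), the run (4.93, 0.0717) or all of these (5.08, 0.263), with every row (5.05, 0.0872), with chromosome X (5.05, 0.0590), within the first run (4.23, 0.466) or the second (5.92, 0.815), and in edited clones (5.01, 0.287); leaving out a library gave 4.53 to 5.33, with adjusted p of 0.00745 to 0.157. Dppa2 newly passed on the mean with the run (-1.28), with site b, site c and run (-1.20), with span centring (-1.40) and with DESeq2 (-1.17), and on 129 within the first run (-5.78). On 129 over all runs, leaving out a library gave -5.90 to -4.43, and it newly passed without a.del (-5.90, adjusted p = 1.29e-06). Within the first run, where every library with site a also had b in its label, Dppa4 newly passed on 129 (-6.86) and on imbalance (6.96). These differences changed direction under at least 1 alternative. The cast difference of Dppa2, -1.13 as reported, was 0.0036 within the first run and -1.50 to 0.081 leaving out a library. That of Dppa4 was -0.061 with median centring, -0.047 with quantile normalization, -0.026 with site b and c terms, -0.036 with the run, -0.088 with all of these, -0.11 with span centring, -0.22 within the second run, -0.031 in edited clones, -0.040 with edgeR, -0.061 with DESeq2 and -0.049 to 0.10 leaving out a library. For Morc1 the mean was 0.20 with site b and c terms, 0.22 with these and run, 0.62 within the second run, 0.17 in edited clones and -0.35 to 0.062 leaving out a library, 129 (-1.54 as reported) was 1.25 and imbalance (1.70 as reported) -0.84 within the second run, and cast was -0.050 within the first run and -0.023 to 0.23 leaving out a library. For runs and left-out libraries fewer samples enter; other causes were not tested. Depth limits the low copies of Dppa2 and Dppa4, at 0 to 32 reads, and Gm12724 with 12 reads over 6 libraries.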
